A study of Homo sapiens with 6 samples.

Results

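The genes described here were placed, mostly by annotation, in ribosome assembly, in the export of RNA from the nucleus or in pre-mRNA splicing. Their RNA was measured in Hep3B cells at 1% and at 20% oxygen. They are the entries of the deposited table that have an Ensembl gene ID and whose KEGG annotation in that table names "Ribosome biogenesis in eukaryotes", "RNA transport" or "Spliceosome", together with RRS1, NOLC1 and NOP2, which were added by symbol. HSPA8 and the RNA polymerase subunits were left out. This gave 66 genes of the 2681 entries with values. Ribosome biogenesis holds 28 of them, RNA transport 31 and the spliceosome 14, and 10 genes stand in 2 of these pathways.

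The hypoxia group is Hep3B, an established human hepatocellular carcinoma line, kept at 1% oxygen for 24 hours (n = 3), and the normoxia group is the same line kept at 20% oxygen for 24 hours (n = 3). Every sample carries the genotype WT and a treatment tag that reads genetic modification without naming one, and the extraction protocol speaks of subclones. Both groups therefore share whatever that tag stands for. The labels do not say whether the 3 samples of a group came from separate cultures. The p-values therefore speak only of the scatter among the samples at hand, part or all of which may be technical.

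The deposited table had already been restricted by its authors to entries past a false discovery rate of 0.01 and a log2 fold change of 1 in either direction, so each of the 66 genes was selected as changed on the same 6 samples. Genes of these pathways that changed less are not analysed here, and no call below is independent evidence of a change. What the table leaves free is the direction. The limits bound the size from below, and the false discovery rate favours entries whose replicates agree. Sizes, agreement of replicates and the parts of each complex that have an entry are therefore given as descriptions. The share of all measured genes that passed the limits is not known here, and the gene lists were chosen with earlier results of these data known. Over the 2675 entries fitted, the edgeR quasi-likelihood test at an adjusted p of 0.05 called 43.3% lower and 56.7% higher in hypoxia, which together is every entry (with the sum of listed counts as library size, 60.3% of the calls were lower), and the 2 groups of samples did not overlap for 99.6% of entries (43.1% with hypoxia lower, 56.6% with hypoxia higher). The listed entries held between 9905692 and 10134230 counts in the hypoxia libraries and between 5474597 and 6128947 in the normoxia libraries, and these sums are not library depths. Of 10 hepatocyte markers, 4 had an entry (ALB, FGB, AFP and APOB), all lower, with summed FPKM of 2.59 to 3.35 in hypoxia libraries and 10.4 to 11.9 in normoxia libraries. These levels were low in both groups. ALB stood at 1.55 to 1.91 FPKM in hypoxia and 3.97 to 6.14 in normoxia, and AFP at 0.663 to 0.837 in hypoxia and 2.76 to 4.33 in normoxia. Of 7 cholangiocyte markers 5 had an entry (76.4 to 115 FPKM in hypoxia, 23.3 to 35.0 in normoxia), of 8 endothelial markers 2 (28.9 to 63.5 against 2.55 to 7.33) and of 8 leukocyte markers CD68 alone (114 to 127 against 36.0 to 38.8), all of them higher, and no fibroblast marker had one. The part of these shifts in the results below was not tested. In RNA from whole cultures, fewer cells of a kind and less RNA per cell cannot be told apart.

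Ribosomes are built in the nucleolus, where RNA polymerase I makes a long precursor rRNA that is folded, chemically modified by small nucleolar ribonucleoproteins (snoRNPs), cut, and joined to ribosomal proteins with the help of many assembly factors. Precursors of both subunits, messenger RNA, tRNA and spliceosomal RNA then reach the cytoplasm through the nuclear pore, carried by export receptors of which many depend on the GTPase Ran. The spliceosome removes introns from pre-mRNA before export. Ribosome building is among the most costly activities of a growing cell, and the transcription factor MYC, which binds the E-box motif, is a well known activator of many of its genes.

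Most of these genes were lower in hypoxia. Of the 66 members, 62 were lower (93.9%, against 43.3% of all entries) and 4 were higher (6.06%, against 56.7%). The hypoxia and normoxia samples did not overlap for each of the 66, and likewise for 99.6% of all entries. All 28 genes annotated to ribosome biogenesis were lower, with a median log2 fold change of -1.30 (range -2.30 to -1.06). They include VWA8 and WDR91, which were annotated through hits to other genes. RNA transport had 29 lower and 2 higher genes, with a median of -1.14, and the spliceosome 12 lower and 2 higher, with a median of -1.09. The decreases were smaller than those of the table as a whole: the 62 lower members had a median of -1.25 and all 1157 lower entries one of -1.36. Of the lower members, 15 fell by more than 1.5 on the log2 scale (24.2%), against 38.0% of all lower entries. Another 15 lay between -1 and -1.1 (24.2%), next to the limit that the authors set for the table, against 15.0% of all lower entries. These differences in size were not tested.

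**Figure D1:**
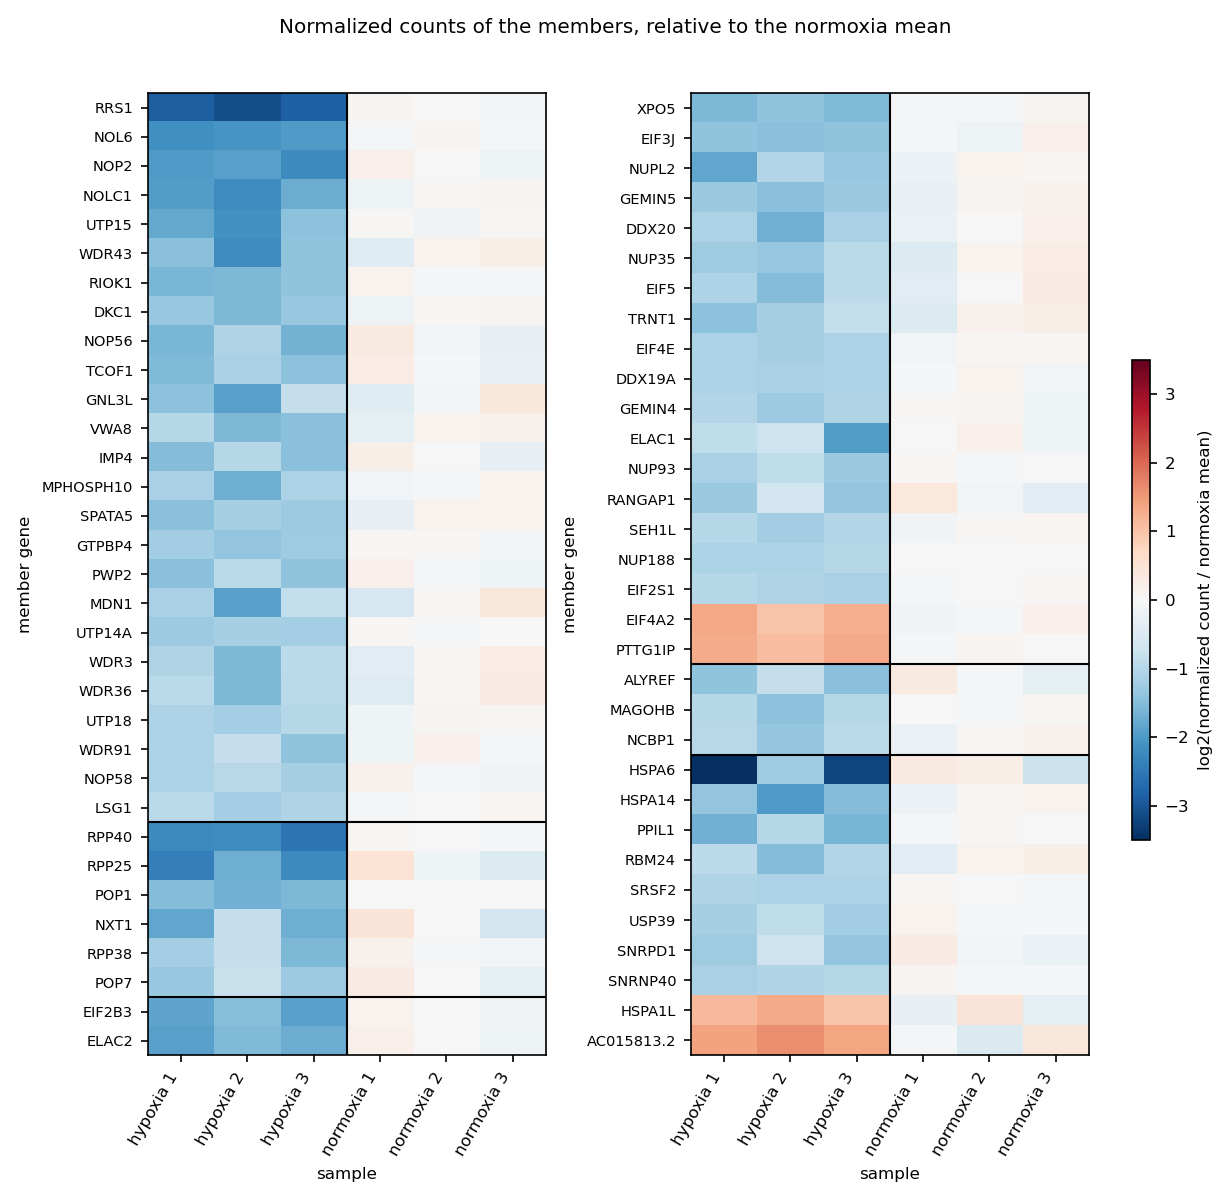
Normalized counts of 65 of the 66 members in each sample, as log2 of the ratio to the gene's normoxia mean (colour), with genes in rows, hypoxia replicates 1 to 3 left and normoxia replicates 1 to 3 right of the vertical line. Horizontal lines part, in order, ribosome biogenesis genes, those in both ribosome biogenesis and RNA transport, RNA transport genes, those in both RNA transport and spliceosome, and spliceosome genes; the 4 genes in red at the left of the line are higher and the others lower in all 3 hypoxia samples than in any normoxia sample.

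FPKM are reads scaled by the authors to transcript length and between libraries. Summed over the 66 genes, they came to 1153, 1061 and 1130.1 in hypoxia replicates 1 to 3, against 2658, 2611 and 2598 in normoxia replicates 1 to 3. For the 28 ribosome biogenesis genes the sums were 304, 324 and 316 FPKM in hypoxia, against 1009.5, 963 and 927 FPKM in normoxia. The groups stood far apart in both sums, and the replicates of a group lay close together. Each gene had been selected as changed on these samples and most were lower, so this separation is no independent evidence. The sums leave out genes of these pathways without an entry.

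The small-subunit processome is the large particle that forms on the nascent precursor rRNA and cuts out the RNA of the small subunit. Its 10 members were all lower, with a median log2 fold change of -1.27. NOL6, a factor of the processome's UTP-C part, had 1199, 1279 and 1353 normalized counts in hypoxia replicates 1 to 3, against 5151, 5631 and 5129 in normoxia replicates 1 to 3. This was a 4.15-fold decrease (log2 fold change -2.05, SE 0.13, adjusted p = 8.34e-06), the largest among the processome members. The groups did not overlap, as for 99.6% of all entries. Normalized counts are deposited counts divided by a scale for each library that was recovered from the authors' fold changes.

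UTP-A is the subcomplex that binds the precursor rRNA early and is tied to its transcription, and 2 of the 6 genes of its list had an entry. UTP15 had 227, 181 and 291 normalized counts in hypoxia, against 810.3, 722 and 821 in normoxia (log2 fold change -1.75, SE 0.21, adjusted p = 0.000140). WDR43 had 1156, 695 and 1199 in hypoxia, against 2380.0, 3512 and 3698 in normoxia (-1.65, SE 0.26, adjusted p = 0.000490). In both genes hypoxia replicate 2 was the lowest of all samples. UTP-B, a scaffold of propeller-shaped proteins, had entries for 4 of its 6 genes, and these lay close together between -1.25 (PWP2) and -1.09 (UTP18). PWP2 had 461, 661 and 477 normalized counts in hypoxia, against 1437, 1239 and 1135 in normoxia (-1.25, SE 0.19, adjusted p = 0.000439). WDR3 (-1.15) and WDR36 (-1.12) fell by about the same amount. The 3 other members, IMP4 (-1.31) and MPHOSPH10 (-1.29) of the MPP10 complex and UTP14A, whose yeast relative activates a helicase of the processome (-1.20), were lower as well. Factors that the KEGG annotation does not name were counted too. With them, 11 of the 27 genes listed as UTP-C, MPP10 and other processome factors had an entry. All 11 were lower, against 43.3% of all entries.

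**Figure D2:**
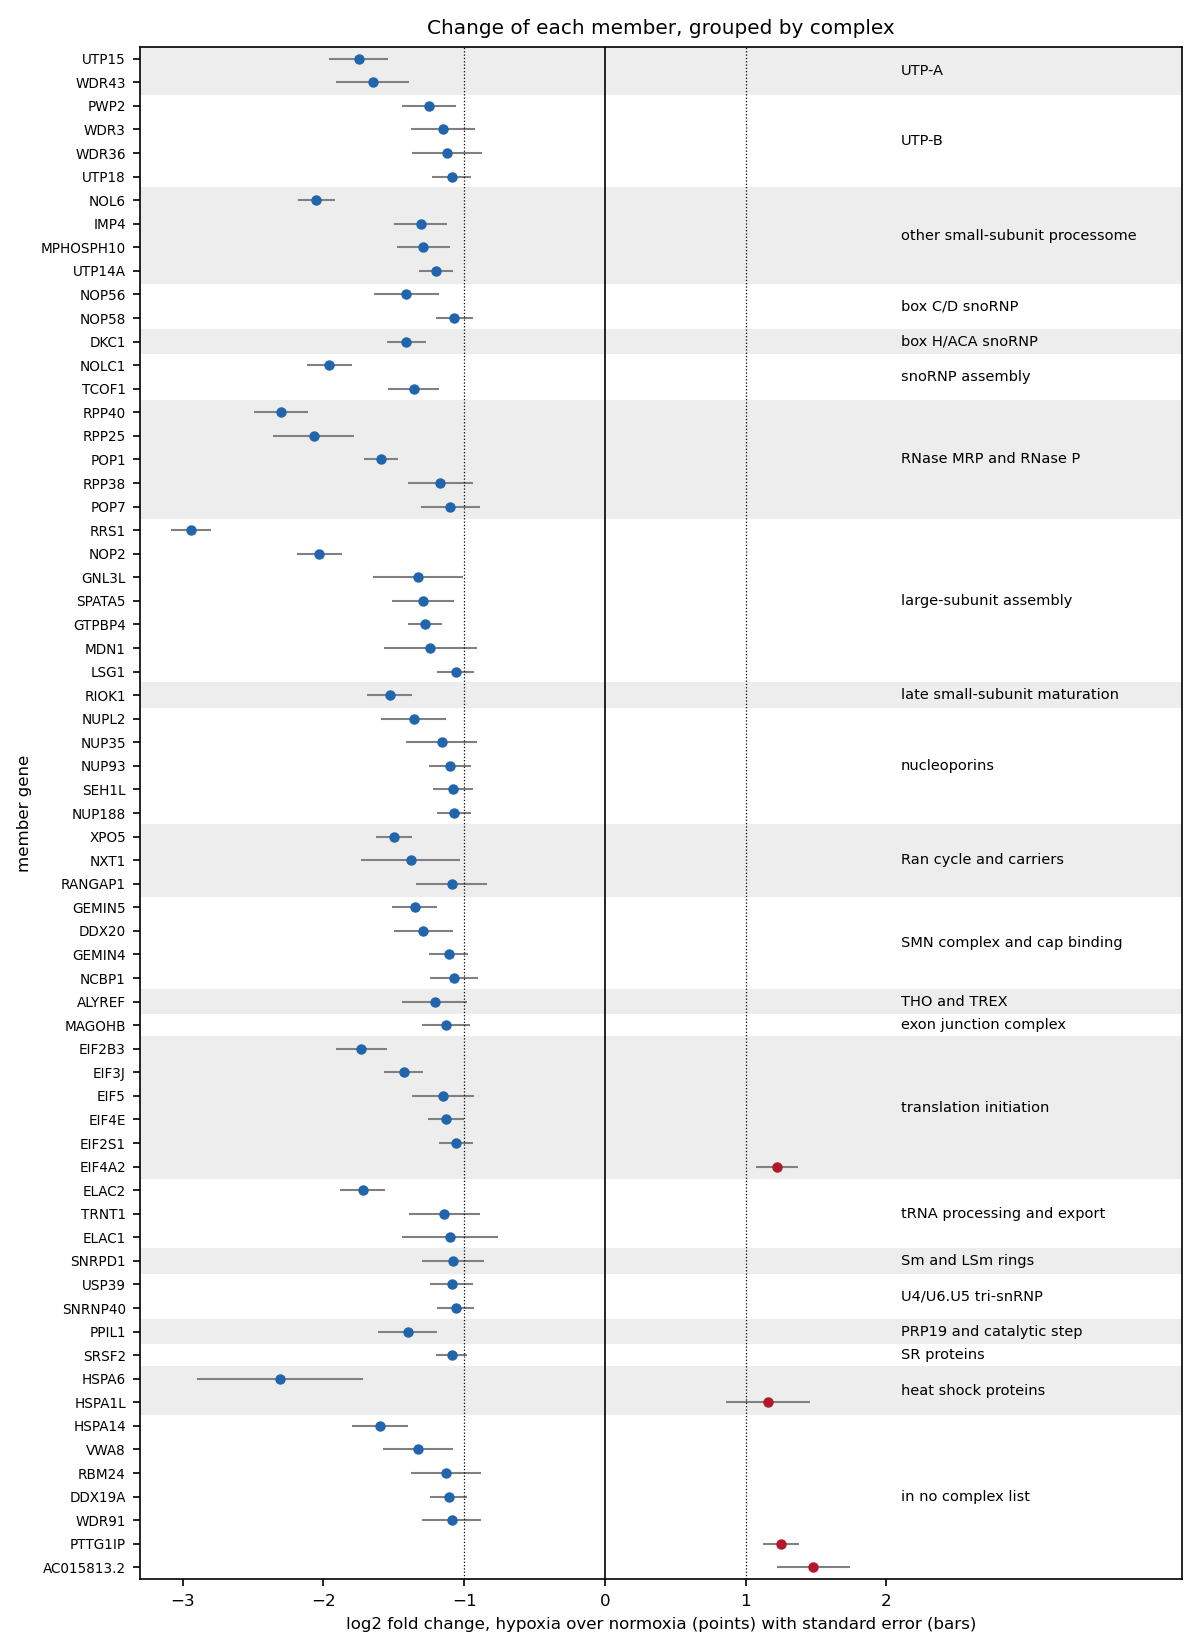
Log2 fold change of hypoxia over normoxia (points) with its standard error (bars) for 65 of the 66 members, grouped by complex (shaded and white bands, named at the right). Dotted lines mark the limits of -1 and 1 that the authors set for the table, and RRS1 lies lowest at -2.94 while the 4 higher genes lie between 1.16 and 1.48.

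The promoters of the processome genes were looked at for the E-box CACGTG, which is its own reverse complement and so reads alike on both strands. RefSeq promoter windows on GRCh38.p14, from 250 bases before to 50 bases after the start site, matched 53 of the 66 members by symbol. The E-box was present in 6 of the 9 processome windows (66.7%), in 9 of 24 windows of ribosome biogenesis genes and NOP2 (37.5%), in 4 of 28 RNA transport windows (14.3%) and in 0 of 8 spliceosome windows. RRS1 and NOLC1 had no window. The 9 include the 6 of the processome, and without the processome 3 of 15 windows held the motif (20.0%). Over all members it was present in 12 of 53 windows (22.6%). It was present in 13.8% of windows of all entries lower in hypoxia, in 10.4% of those higher and in 7.43% of all 27305 windows. Processome windows had a median GC content of 59.3%, all windows 58.3% and windows of lower entries 66.0%, and these shares were not tested.

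**Figure D3:**
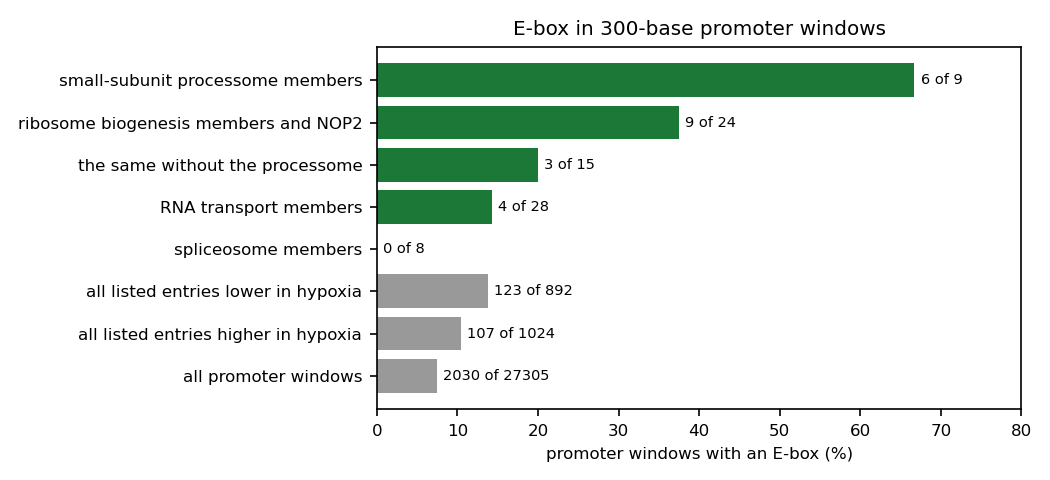
Share of 300-base promoter windows that hold at least 1 E-box (horizontal axis, percent), for groups of members (green) and for other sets (grey), with the number of windows beside each bar. The processome stands highest at 6 of 9 windows and the spliceosome at 0 of 8.

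In 5 of the 6 processome genes an E-box began within 20 bases after the annotated start site, at base 14 in NOL6, 16 in IMP4, 2 in PWP2, 5 in UTP18 and 4 in WDR43, where base 1 is the start site. Those 5 stretches are shown because the processome is the complex with the most such windows. Each runs from position -120 to position 30 from the start, 5′ to 3′ on the gene's strand in GRCh38.p14, with each E-box in capitals. NOL6 is on the minus strand at chr9:33473895-33474044, and the others are on the plus strand, IMP4 at chr2:130342777-130342926, PWP2 at chr21:44107279-44107428, UTP18 at chr17:51260426-51260575 and WDR43 at chr2:28894547-28894696.
NOL6: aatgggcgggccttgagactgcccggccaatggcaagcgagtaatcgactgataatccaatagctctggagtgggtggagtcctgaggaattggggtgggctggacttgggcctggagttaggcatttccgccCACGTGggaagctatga
IMP4: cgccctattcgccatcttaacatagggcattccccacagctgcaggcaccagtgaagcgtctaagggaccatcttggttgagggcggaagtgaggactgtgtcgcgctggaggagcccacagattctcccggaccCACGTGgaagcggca
PWP2: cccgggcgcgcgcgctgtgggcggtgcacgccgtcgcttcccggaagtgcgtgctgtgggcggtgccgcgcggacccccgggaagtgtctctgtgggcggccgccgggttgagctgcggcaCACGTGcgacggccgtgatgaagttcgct
UTP18: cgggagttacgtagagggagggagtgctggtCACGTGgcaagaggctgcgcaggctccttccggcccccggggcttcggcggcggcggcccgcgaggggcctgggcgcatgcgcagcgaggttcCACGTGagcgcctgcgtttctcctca
WDR43: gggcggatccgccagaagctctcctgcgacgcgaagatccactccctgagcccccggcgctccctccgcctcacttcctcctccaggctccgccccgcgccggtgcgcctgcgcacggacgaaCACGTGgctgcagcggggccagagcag

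A match is a description of the letters and not evidence that a factor binds there. The sixth processome gene, UTP14A, has its E-box at position -241, and UTP15, WDR3 and WDR36 have none in the window. The other members with the motif were EIF2B3, EIF4E, MDN1, NOP2, NUP188 and POP7. GCGTG, a core form of the hypoxia response element, was found on either strand in 73.6% of the member windows, 58.1% of windows of all lower entries, 43.1% of those of higher entries and 36.3% of all windows. The other core form, ACGTG, lies within CACGTG on both strands. It was found in 35.8% of member windows, 28.6% of windows of all lower entries, 27.2% of those of higher entries and 21.6% of all windows. Member windows had a median GC content of 66.0%, against 58.3% for all windows, and the shares of both core forms were not tested. In the MYC network list of 11 genes, 3 had an entry and all 3 were higher in hypoxia, namely MXI1 (log2 fold change 2.72), MXD1 (1.40) and MNT (1.06). These encode partners of MAX that bind the E-box and oppose MYC. MYC and MAX had no entry, and whether this network has any part in the decreases was not tested.

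SnoRNPs modify the rRNA at positions chosen by their guide RNA. In the box C/D particle, which methylates ribose, NOP56 had 4473, 6594 and 4293 normalized counts in hypoxia, against 17030.5, 12669 and 11203 in normoxia (log2 fold change -1.41, SE 0.23, adjusted p = 0.000547), and its partner NOP58 fell by 1.07 on the log2 scale. In the box H/ACA particle, which makes pseudouridine, the enzyme DKC1 had 2376, 1988 and 2356 in hypoxia, against 5276, 6205 and 6363 in normoxia (-1.41, SE 0.14, adjusted p = 6.31e-05). The remaining 3 genes of each particle had no entry. NOLC1, a nucleolar chaperone of both kinds of snoRNP, had 1585, 1345 and 1863 normalized counts in hypoxia, against 5527, 6424 and 6641 in normoxia, a 3.88-fold decrease (-1.96, SE 0.16, adjusted p = 3.24e-05). TCOF1, the related nucleolar protein treacle, fell by 1.36 on the log2 scale. All 7 entries of the 12-gene list of snoRNP assembly factors and nucleolar chaperones were lower, against 43.3% of all entries.

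RNase MRP and RNase P are sister enzymes with nearly the same proteins, and they cut precursor rRNA and the 5′ ends of precursor tRNA. Entries were present for 5 of the 11 genes listed, all lower (against 43.3% of all entries), with a median of -1.59. This group held 3 of the 15 members that fell by more than 1.5 on the log2 scale. RPP40 had 125, 129 and 99.3 normalized counts in hypoxia, against 596, 584 and 563 in normoxia, a 4.94-fold decrease (-2.30, SE 0.19, adjusted p = 3.04e-05). RPP25 had 631, 1024 and 715 in hypoxia, against 4613, 2982 and 2381 in normoxia (-2.07, SE 0.29, adjusted p = 0.000291). Normoxia replicate 1 stood above the other normoxia samples in RPP25, and without it the log2 fold change was -1.76. POP1, the large scaffold subunit, had 1213, 1079 and 1182 in hypoxia, against 3501, 3498 and 3452 in normoxia (-1.59, SE 0.12, adjusted p = 2.41e-05), and its coefficient of variation in normoxia, 0.785%, was the lowest of any member. POP7, a small subunit, had 1424, 2051 and 1469 in hypoxia, against 4286, 3488 and 2849 in normoxia (-1.10, SE 0.21, adjusted p = 0.00124), with hypoxia replicate 2 and normoxia replicate 1 highest in their groups. RPP38 fell by 1.17.

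The member with the deepest decrease, RRS1, belongs to large-subunit assembly. The 7 members of that group had a median log2 fold change of -1.29, less deep than that of RNase MRP and RNase P (-1.59). RRS1, which helps to bring a small ribonucleoprotein with one of the rRNAs into the particle, had 478, 412 and 489 normalized counts in hypoxia replicates 1 to 3, against 3767, 3517 and 3313 in normoxia replicates 1 to 3, a 7.68-fold decrease (log2 fold change -2.94, SE 0.14, adjusted p = 4.35e-06). In FPKM, RRS1 averaged 6.76 ± 1.20 in hypoxia and 62.1 ± 0.530 in normoxia (SD, n = 3 each). NOP2, an rRNA methyltransferase long known as a proliferation antigen, had 2084, 2237 and 1763 normalized counts in hypoxia, against 9385, 8212 and 7277 in normoxia (-2.03, SE 0.16, adjusted p = 2.43e-05). The 3 added genes thus lay at -1.96 or below, and without them 59 of 63 members were lower. The GTPases GNL3L (-1.33), GTPBP4 (-1.28) and LSG1 (-1.06) fell less, as did the ATPases SPATA5 (-1.29) and MDN1 (-1.24), whose yeast relatives strip assembly factors from the particle. Including genes outside the KEGG annotation, 26 of 52 large-subunit factors had an entry and all 26 were lower, against 43.3% of all entries. In late maturation of the small subunit, the member RIOK1, an atypical kinase, fell by 1.53 on the log2 scale. Of the 13 genes of that list 5 had an entry, 4 lower and 1 higher, which was RIOK3.

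Entries of assembly factors that the annotation does not place in these pathways were mostly lower too. In a list of 95 such genes with the members left out, 48 had an entry, 47 lower and 1 higher (43.3% of all entries were lower). The list was chosen with earlier results of these data known, and each entry had been selected as changed, so these counts are no independent evidence. The median log2 fold change of the 48 was -1.36, which equals the median of all lower entries. The deepest were URB2 (-2.97), PNO1 (-2.32), LTV1 (-2.16) and DDX21 (-2.03), and the 1 higher gene was NOP53 (1.30). Part of this list also stands in the lists of complexes given above. The nuclear exosome, which trims rRNA and degrades by-products, had 3 entries of 16 genes, all lower. The groups did not overlap for 2 of these 3, against 99.6% of all entries. Casein kinase 2, which forms part of UTP-C, had no entry among its 4 genes.

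**Figure D4:**
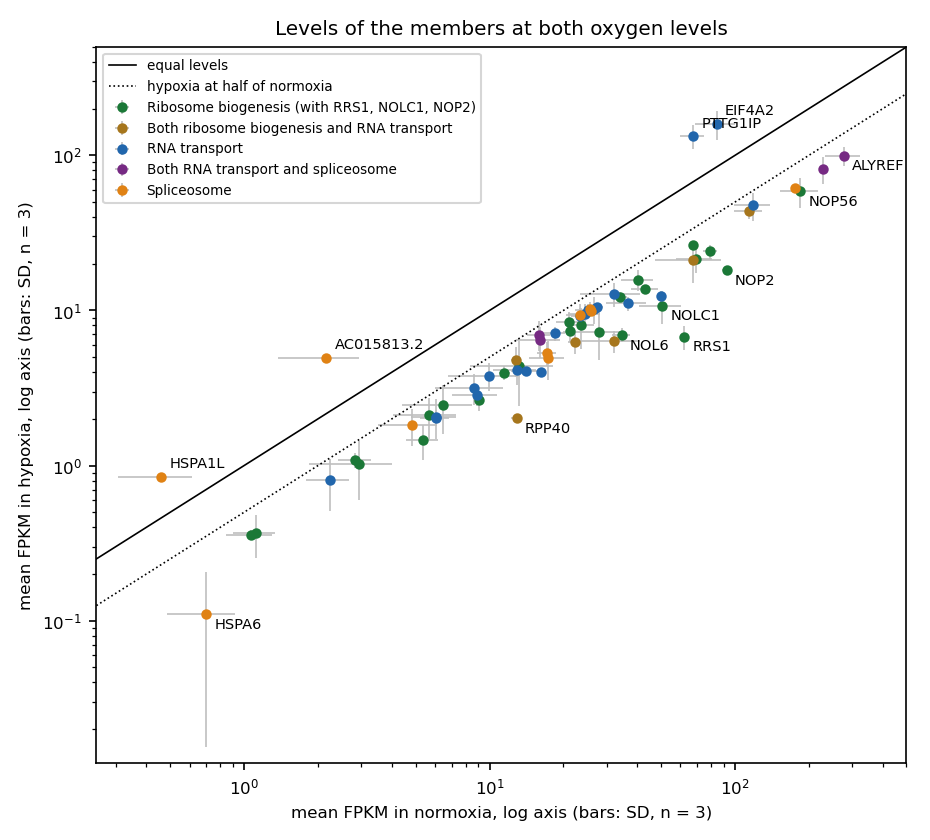
Mean FPKM in hypoxia (vertical, log axis) against mean FPKM in normoxia (horizontal, log axis) for the 66 members, coloured by pathway, with bars for the SD (n = 3 each). The solid line marks equal levels and the dotted line a 2-fold lower level in hypoxia; the 4 higher genes lie above the solid line, and RRS1 and RPP40 lie farthest below the dotted one among genes above 10 FPKM in normoxia.

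RNA transport, as annotated, spans the nuclear pore, its carriers, spliceosomal RNA assembly, tRNA processing and translation initiation. Of 35 nucleoporins, the proteins of the pore, 6 had an entry, all lower (against 43.3% of all entries). Among these, 5 are members, between -1.36 (NUPL2) and -1.07 (NUP188). NUPL2, now named NUP42, sits on the cytoplasmic face and takes part in mRNA export. It had 208, 361 and 293 normalized counts in hypoxia, against 636, 805 and 765 in normoxia (-1.36, SE 0.23, adjusted p = 0.000745). NUP93 (-1.10) and NUP188 (-1.07) of the inner ring, NUP35 beside them (-1.16) and SEH1L of the outer ring (-1.08) were lower as well.

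Among 40 genes of the Ran cycle, SUMO, importins and exportins, 8 had an entry, all lower (against 43.3% of all entries). XPO5, which carries precursor microRNAs to the cytoplasm, had 840.0, 930.0 and 859 normalized counts in hypoxia, against 2377, 2403 and 2676 in normoxia, a 2.84-fold decrease (SE of the log2 fold change 0.13, adjusted p = 3.71e-05). NXT1, the small partner of the mRNA export receptor, had 728, 1438 and 777 in hypoxia, against 3499.5, 2551 and 1630.1 in normoxia (-1.38, SE 0.35, adjusted p = 0.00512). Its highest hypoxia and lowest normoxia samples were separated by a factor of only 1.13, and its log2 fold change was -1.77 without hypoxia replicate 2. RANGAP1, the activator of the Ran GTPase, fell by 1.09. ALYREF, an adaptor that loads the export receptor onto spliced mRNA, had 3861, 5660.4 and 3689 in hypoxia, against 12723, 9765 and 8001 in normoxia (-1.21, SE 0.23, adjusted p = 0.00131), and was the only one of 14 genes of THO and TREX with an entry. MAGOHB, a core subunit of the exon junction complex, fell by 1.13, and the other 15 genes of that list had no entry.

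The SMN complex places the Sm ring on spliceosomal RNA in the cytoplasm. GEMIN5, its RNA-recognition subunit, had 641, 573 and 642 normalized counts in hypoxia, against 1314, 1676 and 1745 in normoxia (-1.35, SE 0.16, adjusted p = 0.000137). DDX20 (-1.29) and GEMIN4 (-1.11) of the same complex and the cap-binding protein NCBP1 (-1.07) were lower too. In tRNA processing, ELAC2, the endonuclease that trims the 3′ ends of precursor tRNA, had 1364, 1756 and 1543 in hypoxia, against 5768, 5094 and 4502 in normoxia, a 3.30-fold decrease (-1.72, SE 0.16, adjusted p = 4.33e-05). TRNT1, which adds the CCA end, was lower too (-1.14), as was ELAC1 (-1.10).

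Translation initiation factors, which KEGG files under RNA transport, had members in both directions. Of 58 genes listed, 6 had an entry, 5 lower and 1 higher. EIF2B3, a subunit of the exchange factor that recharges eIF2 with GTP, had 248, 319 and 238 normalized counts in hypoxia, against 961, 888 and 814 in normoxia, a 3.31-fold decrease (-1.73, SE 0.18, adjusted p = 7.49e-05). EIF3J (-1.43), EIF5 (-1.15), the cap-binding protein EIF4E (-1.13) and EIF2S1, the alpha subunit of eIF2 (-1.06), were lower as well. EIF4A2, a helicase closely related to the eIF4F subunit EIF4A1, had 13451, 10452 and 12609 in hypoxia, against 4804, 4975 and 5945 in normoxia (1.22, SE 0.15, adjusted p = 0.000171). It was 2.32-fold higher in hypoxia, and the groups did not overlap, as for 99.6% of all entries. The call for EIF4A2 was lost when the sum of listed counts served as library size, where its log2 fold change was 0.26.

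The spliceosome lists had few entries. A gene without an entry had not passed the authors' limits, and the share of all measured genes that passed them is not known here. The counts that follow are therefore descriptions and no result about the spliceosome. Of 28 genes of the U1 and U2 particles none had an entry, nor had any of 20 hnRNPs. Single genes stood for the Sm and LSm rings (SNRPD1, -1.08, of 15 genes), for the SR proteins (SRSF2, -1.09, of 14) and for the PRP19 complex and catalytic-step factors (PPIL1, of 31), and USP39 (-1.09) and SNRNP40 (-1.06) stood for the 19 genes of the tri-snRNP. PPIL1, a peptidyl-prolyl isomerase of the activated spliceosome, had 311, 496 and 323 normalized counts in hypoxia, against 965, 1014 and 994 in normoxia (-1.40, SE 0.21, adjusted p = 0.000401). Outside the annotated pathway, 3 of 25 regulators of alternative splicing had an entry. The kinases CLK1 (1.17) and CLK4 (1.01), which phosphorylate SR proteins, were higher, and the epithelial splicing factor ESRP2 (-1.90) was lower.

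Some spliceosome members owe their place to heat shock proteins or to sequence similarity. HSPA6, a stress-inducible heat shock protein, had 5.03, 23.7 and 6.02 normalized counts in hypoxia, against 70.0, 65.7 and 33.4 in normoxia (-2.31, SE 0.59, adjusted p = 0.00541). Its counts were few and hypoxia replicate 2 stood above the other hypoxia samples, and the log2 fold change without that library was -3.32. HSPA1L had 86.5, 98.3 and 78.2 in hypoxia, against 32.1, 53.9 and 31.6 in normoxia (1.16, SE 0.30, adjusted p = 0.00564). The call for HSPA1L was lost under 3 other scalings, with log2 fold changes of 0.63 (TMM over the listed entries), 0.37 (DESeq2's own size factors) and 0.19 (sum of listed counts). HSPA14, a ribosome-associated relative of the family, had 414, 272 and 375 in hypoxia, against 934, 1125 and 1162 in normoxia (-1.60, SE 0.20, adjusted p = 0.000172).

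The annotation column assigned several members through a hit to another gene. VWA8 was annotated through midasin, WDR91 through the processome protein UTP13, RBM24 through hnRNP A1 and A3, and PTTG1IP through SUMO. PTTG1IP is a membrane-associated partner of securin. It had 15249.7, 13098 and 15353 normalized counts in hypoxia, against 5813, 6533 and 6075 in normoxia (1.25, SE 0.13, adjusted p = 7.15e-05). AC015813.2, the member with the largest increase, had 429, 506 and 426 in hypoxia, against 158, 115 and 216 in normoxia (1.48, SE 0.26, adjusted p = 0.000845). It was annotated through SRSF1 and shares 83.1% of the 31-base words of its transcripts with SRSF1 on the same strand. With the sum of listed counts as library size, PTTG1IP and AC015813.2 had log2 fold changes of 0.29 and 0.50 and were no longer called.

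The sources used here do not state how reads were assigned between genes with common sequence, and the values of a few members are uncertain for that reason. In GENCODE 29, PWP2 shares 95.9% of its 31-base words with FP565260.1, NOP2 shares 83.4% with AC006064.6 and HSPA6 shares 56.6% with HSPA7, in each case on the same strand. SRSF2 overlaps MFSD11 on the opposite strand over 31.3% of its words, and whether counting used strand is not stated. For 12 of the 66 members more than 20% of the words recur in another gene.

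Replicates varied by a median coefficient of variation of 14.6% in hypoxia and 11.4% in normoxia across the 66 members, and the range was wide in both groups. In hypoxia it ran from 1.34% (DDX19A) to 90.7% (HSPA6), and in normoxia from 0.785% (POP1) to 36.5% (NXT1). Part of this variation followed the GC content of the transcript, most clearly in hypoxia replicate 2 and normoxia replicates 1 and 3. The deviation of hypoxia replicate 2 from the other hypoxia samples correlated with GC content at r = 0.52 over the 66 members, that of normoxia replicate 1 at r = 0.61 and that of normoxia replicate 3 at r = -0.63. These are descriptions across genes that share a library, and similar values were found over 2485 entries of the table (0.57, 0.51 and -0.51). GC-rich members such as RPP25 (62.8% GC), POP7 (60.6%), ALYREF (57.5%), RANGAP1 (56.8%) and NXT1 (56.0%) were highest of their group in both libraries, whereas WDR36 (37.3%), WDR3 (39.5%) and WDR43 (40.3%) were lowest in both. Without both libraries, which was tried after the pattern was seen, 62 members were lower and 4 higher as before, and the median of the 66 was -1.26 in place of -1.20. The log2 fold change itself correlated with GC content at r = -0.17 over all 66 members and -0.33 over the 62 lower ones. With the log2 of the normoxia FPKM, r was -0.13 over all 66 and 0.01 over the 62. With log2 transcript length it was 0.06 over all 66.

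**Figure D5:**
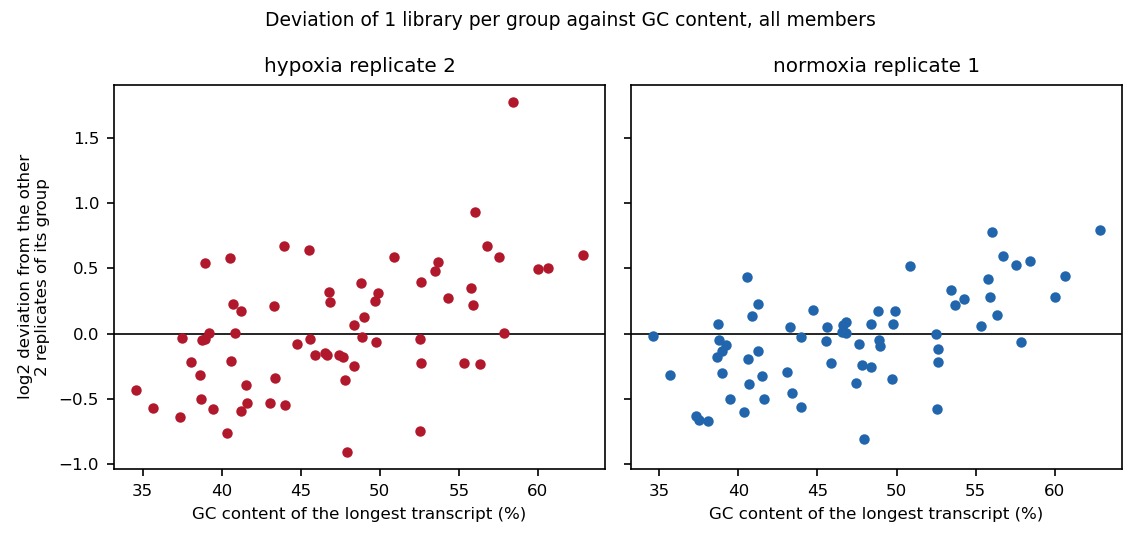
Log2 deviation of hypoxia replicate 2 (left) and normoxia replicate 1 (right) from the mean of the other 2 samples of its group (vertical axis) against the GC content of the longest transcript (horizontal axis, percent), with 1 point per member (66). In both libraries most GC-rich members lie above 0 and most GC-poor ones below, with r = 0.52 in hypoxia replicate 2 and 0.61 in normoxia replicate 1, and the highest point at the left is HSPA6.

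Counts and FPKM did not give the same fold for every member. The log2 ratio of mean FPKM differed from the log2 fold change of counts by a median of -0.27 both over the members and over all entries. How the authors scaled FPKM between libraries is not stated. SRSF2 had one of the lowest such differences, -0.43. It was 2.87-fold lower in hypoxia by mean FPKM, against a log2 fold change of -1.09 in counts. At the other end, MAGOHB differed by only -0.06 between the measures.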

How the data were processed

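RNA was sequenced from 6 samples of Hep3B, 3 at 1% and 3 at 20% oxygen for 24 hours, and per the labels' protocols TRIzol RNA, cleared of DNA, went into a SMARTER mRNA-seq kit. The aligner, counter, annotation, genome build and use of strand are not stated in the sources used here. The deposited counts are raw whole numbers per gene, and the FPKM in the table were computed by the authors, per the file headers. Its adjusted p-values (FDR) and log2 fold changes come from the authors' own test, as the deposited headers show, and were used to see what the table had been restricted to and to recover the library scales.

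The members, the gene lists and the tests were chosen with earlier results of these data known. The test written down beforehand was edgeR with TMM scaling, which assumes that most features do not change, whereas the table lists only changed ones. Scales were instead fitted by least squares to the authors' log2 fold changes over the 1442 entries that exceed 200 counts in all libraries (median absolute residual 0.000209 on the log2 scale). They came to 0.994, 0.844 and 0.997 for hypoxia and 1.06, 1.02 and 1.11 for normoxia, so the fold changes are no check of the authors' scale. The fit left out 6 entries whose fold change in the table lay more than 1 (log2) from that of their own counts, none of them a member. The edgeR quasi-likelihood test (version 4.0.16, R 4.3.3) with filterByExpr, which removed 0 entries, and Benjamini-Hochberg adjustment over 2675 entries gave the log2 fold changes and adjusted p-values, at a threshold of 0.05, and SE is the size of the log2 fold change divided by the root of the F statistic. On simulated data with 2675 genes, it recovered 74% of genes made 2-fold lower, 68% made 2-fold higher and 100% made 4-fold different, and called 0.444% of unchanged ones. Genes named with the value of each sample are RRS1, NOLC1 and NOP2, the 6 largest changes and the 2 highest mean FPKM of each pathway, the members that go against most of their pathway, and the largest change in each complex with at least 3 members. DKC1 and NXT1, given in the same way, were chosen after their values were seen. Alternatives were other scalings, filters, thresholds, DESeq2 1.42.0, limma 3.58.1 on log2(FPKM + 1) or log2(FPKM + 0.1), each library left out in turn, and the replicate number as a block. Replicates were compared pairwise, and their chi-square per degree of freedom was 13.1 to 268, so none was taken for a copy.

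Transcript GC content, length and shared 31-base words come from GENCODE 29 on GRCh38, joined by Ensembl ID, and promoter windows from RefSeq on GRCh38.p14, joined by symbol, with 53 of 66 members matched. The values of 1 member are not reported here by name.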

Additional observations from a re-analysis of the deposited data

How the results depend on the processing

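The 62 lower members were called lower under every alternative run except a threshold of 0.01, where 61 were and ELAC1 was lost, and the minimum mean of 1 FPKM, which left 59, all of them called. This stability is not particular to the members, because every entry had been selected as changed on these samples. Of all 1157 lower entries, 1157 were called lower under TMM, 1154 or more without 1 library, and 1129 at a threshold of 0.01. No direction reversed for any named member. With the sum of listed counts as library size 0 members were called higher (0 in RNA transport, in the spliceosome and in initiation factors), and 1 of the spliceosome genes was under TMM, DESeq2's own size factors and limma with a minimum mean of 1 FPKM. TMM, the sum of listed counts and DESeq2's size factors shifted all entries by medians of -0.53, -0.96 and -0.78 (log2), and limma on log2(FPKM + 1) and log2(FPKM + 0.1) by -0.30 and -0.28; the sum of listed counts put 60.3% of all calls lower, against 43.3%. In the order TMM, sum of listed counts, DESeq2's size factors, limma + 1, limma + 0.1 and limma + 1 with the minimum, the median of all members was -1.74, -2.17, -1.97, -1.31, -1.47 and -1.33, of ribosome biogenesis -1.84, -2.28, -2.08, -1.41, -1.55 and -1.42, of RNA transport -1.67, -2.11, -1.93, -1.30, -1.41 and -1.30, and of the spliceosome -1.62, -2.06, -1.86, -1.25, -1.36 and -1.28. Leaving out 1 library gave medians of -1.25 to -1.20, -1.35 to -1.28, -1.21 to -1.14 and -1.11 to -1.05 for those groups, and no member lost its call. Without both hypoxia replicate 2 and normoxia replicate 1, added after seeing the data, the medians of all members and of RNA transport were -1.26 and -1.22. The cause of these shifts was not tested. HSPA6 alone moved by over 1.5 times without 1 library (-3.32 without hypoxia replicate 2).

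Replicate numbers share no stated origin: deviations of same-numbered samples correlated at -0.38, -0.14 and 0.47, and hypoxia replicate 2 correlated best with normoxia replicate 1 (0.61). With the replicate block, 62 members were lower and 4 higher, and the median was -1.20. Counts of few reads limit HSPA6 and HSPA1L most.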

Other observations

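Other parts of RNA metabolism outside the 3 pathways had few entries. All 3 entries of 20 cytosolic aminoacyl-tRNA synthetases, which charge tRNA, were lower in hypoxia (FARSB, MARS and WARS, with a median log2 fold change of -1.30), and so were all 4 of 12 elongation and termination factors (EEF1E1, EIF5A2, ABCE1 and ETF1, median -1.32). All 3 entries of 18 cleavage and polyadenylation factors, CPSF2, CSTF2 and CSTF3, were lower as well, with a median of -1.11. Over all entries 43.3% were lower. These lists were chosen with earlier results of these data known, and each entry had been selected by the authors as changed.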
